A study of Homo sapiens with 4 samples.

Results

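Chromosome 20 of the liver cancer cell line HepG2 was examined for sites of γH2AX, the phosphorylated form of the histone variant H2AX that forms in chromatin around DNA double-strand breaks. Its members were the γH2AX peaks that lay wholly more than 1 Mb from either chromosome end and more than 3 Mb from the centromere at 28.1 Mb (genome build hg38). This gave 256 of the 8542 peaks of mock-treated cells and 847 of the 27296 peaks of lipid-overloaded cells. They came from 295 and 988 peaks on the whole of chromosome 20. The 24.1 Mb of the short arm and the 32.3 Mb of the long arm that the margins left held 474 protein-coding genes, 151 on the short and 323 on the long arm.

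The study had 4 samples of HepG2, 1 in each of 4 groups. Cells treated as a mock control (DMSO in the sample title) and cells under lipid overload (PAOA in the title) were each assayed by CUT&Tag, once with an antibody to γH2AX and once with IgG. The IgG libraries were not analysed here, and no antibody background is therefore given. All cells were of 1 line, grown in the same medium, and each γH2AX list rested on 1 library, so no difference below has a replicate check and no p-value is given.

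In CUT&Tag a transposase tethered to the antibody cuts and tags the DNA beside it, and a peak is a place where more tagged fragments piled up than around it. γH2AX spreads from a break along the flanking chromatin, and it is also found at active gene starts and at sites of replication stress. HepG2 cells are known to carry extra copies of chromosome 20, and gain of its long arm is common in liver, colon and breast cancers. That arm carries regulators of mitosis, splicing and transcription, whereas the short arm carries long stretches with few genes. Peak lists do not measure copy number. The nearest measure they hold, the local background of each peak, is given with the arms.

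The values below are numbers of fragments over a peak's summit, recovered from the fold enrichment and p-value that the authors deposited for each peak. They could be recovered for all 256 mock and all 847 lipid-overload peaks of chromosome 20. A value of 0 means that no peak was listed, not that no fragment was there. The lowest local background of a list, taken as that of the genome, was 0.121 fragments in mock and 0.289 in lipid overload, a ratio of 2.39. A gene was called marked when a peak lay within 1 kb of either end of it. Ends were the outermost annotated positions, so a peak at a start inside a gene did not mark it. Intervals in brackets are exact, at 95%, and cover counting error only.

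The sequences printed here are promoters, from 250 bases before to 50 after the gene start, since gene starts held the sharpest concentration of peaks on the chromosome. They are from RefSeq (GRCh38.p14, the coordinates of hg38), which gave a promoter for 334 of the 474 coding genes. RALY encodes an RNA-binding protein, and TOP1 is the topoisomerase that nicks and reseals 1 DNA strand. Among genes with a promoter entry, these had the strongest starts marked in both lists. OSBPL2, a lipid transfer protein of the oxysterol-binding family, and TCFL5, a transcription factor, were the strongest marked only in lipid overload. HAO1, a liver peroxisomal oxidase, and HNF4A, a nuclear receptor of hepatocytes, were the unmarked hepatocyte genes with a promoter entry. A single entry per gene was used, so any other start inside HNF4A was not examined. Each line gives 300 bases, 5′ to 3′ on the gene's own strand, and capitals mark CG dinucleotides.
RALY: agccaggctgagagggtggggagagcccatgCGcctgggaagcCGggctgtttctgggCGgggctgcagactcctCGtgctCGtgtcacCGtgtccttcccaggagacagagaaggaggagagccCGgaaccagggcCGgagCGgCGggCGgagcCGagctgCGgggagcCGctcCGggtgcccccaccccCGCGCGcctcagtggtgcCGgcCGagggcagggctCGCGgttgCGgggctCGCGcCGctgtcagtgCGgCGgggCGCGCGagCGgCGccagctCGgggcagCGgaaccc
TOP1: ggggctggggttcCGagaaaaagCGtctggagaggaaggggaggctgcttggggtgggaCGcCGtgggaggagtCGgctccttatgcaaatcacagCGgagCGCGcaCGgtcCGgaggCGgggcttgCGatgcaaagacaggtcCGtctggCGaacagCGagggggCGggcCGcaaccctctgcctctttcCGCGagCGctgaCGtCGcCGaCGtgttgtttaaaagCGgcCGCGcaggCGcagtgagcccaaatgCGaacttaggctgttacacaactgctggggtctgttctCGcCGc
OSBPL2: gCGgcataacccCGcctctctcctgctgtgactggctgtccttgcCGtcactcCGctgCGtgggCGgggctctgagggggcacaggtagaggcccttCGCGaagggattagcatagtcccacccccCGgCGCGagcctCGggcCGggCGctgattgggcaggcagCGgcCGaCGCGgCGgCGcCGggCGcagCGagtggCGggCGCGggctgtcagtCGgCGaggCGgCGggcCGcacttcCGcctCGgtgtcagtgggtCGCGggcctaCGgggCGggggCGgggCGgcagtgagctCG
TCFL5: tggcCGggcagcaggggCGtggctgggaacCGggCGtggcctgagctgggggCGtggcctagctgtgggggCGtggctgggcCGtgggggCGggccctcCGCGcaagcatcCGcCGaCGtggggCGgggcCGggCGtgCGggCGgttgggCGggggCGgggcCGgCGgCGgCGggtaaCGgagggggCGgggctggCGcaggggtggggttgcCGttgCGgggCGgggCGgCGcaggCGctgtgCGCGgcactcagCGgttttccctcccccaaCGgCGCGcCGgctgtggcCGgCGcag
HAO1: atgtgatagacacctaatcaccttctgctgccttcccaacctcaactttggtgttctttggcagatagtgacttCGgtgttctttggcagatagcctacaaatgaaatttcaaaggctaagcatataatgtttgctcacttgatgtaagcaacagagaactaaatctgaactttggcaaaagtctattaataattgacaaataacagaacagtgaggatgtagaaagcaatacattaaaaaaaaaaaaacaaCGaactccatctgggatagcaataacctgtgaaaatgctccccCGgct
HNF4A: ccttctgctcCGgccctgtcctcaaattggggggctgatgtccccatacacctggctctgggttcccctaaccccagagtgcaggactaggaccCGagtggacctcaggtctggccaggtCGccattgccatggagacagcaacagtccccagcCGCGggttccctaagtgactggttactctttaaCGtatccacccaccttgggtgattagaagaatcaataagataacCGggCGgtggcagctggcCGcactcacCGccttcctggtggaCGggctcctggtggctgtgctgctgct

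The RALY promoter (chr20:33993661-33993960, + strand) held 35 CG dinucleotides and 75.7% G+C. Its mock peak had 15 fragments and its lipid-overload peak 43, with the summits at −480 and −705 bp from the gene start. The TOP1 promoter (chr20:41028572-41028871, + strand) had 31 CG dinucleotides, and its lipid-overload peak of 36 fragments covered the whole window, against 6 fragments in mock. At OSBPL2 (chr20:62238271-62238570, + strand, 40 CG) and TCFL5 (chr20:62861773-62862072, − strand, 42 CG) the lipid-overload peaks had 50 and 39 fragments, and their summits lay at −165 and −186 bp from the start. The marked promoters were dense in CG along their length. HAO1 (chr20:7940409-7940708, − strand) had 3 CG and 38% G+C, and HNF4A (chr20:44355449-44355748, + strand) had 11 CG and 60% G+C. Neither had a peak within 1 kb of the start of its entry in either list.

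Chromosome 20 held more γH2AX peaks than its length or its number of genes gives, in both lists. Over chromosomes 1 to 22 and X, all under the same margins, it took 3.28% of the mock peaks (2.90 to 3.70) and 3.38% of the lipid-overload peaks (3.16 to 3.61), with 1.98% of the length and 2.51% of the coding genes. Among these 23 chromosomes it ranked 6 in coding genes per Mb, and 3 in mock and 5 in lipid overload for peaks per Mb. Per coding gene it had 0.54 mock peaks and 1.79 lipid-overload peaks, rank 3 in both lists. The lipid-overload list held 3.31 times as many chromosome 20 peaks as the mock list (2.87 to 3.82). On the other chromosomes the ratio was 3.21. Relative to them the chromosome 20 ratio was 1.03 (0.894 to 1.19), an interval that includes 1, so no difference of chromosome 20 in its change under lipid overload was detectable. With only peaks of −log10 q of at least 5 it was 0.857, and with the lipid-overload list cut to the length of the mock list 0.877, again with intervals that include 1.

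The excess of peaks lay on the long arm, and the short arm had fewer peaks than most arms of the genome. The short arm held 31 mock and 77 lipid-overload peaks, the long arm 225 and 770. With 31.9% of the chromosome's coding genes and 42.7% of its analysed length, the short arm took 12.1% of its mock peaks (8.38 to 16.7) and 9.09% of its lipid-overload peaks (7.24 to 11.2). Per coding gene the long arm had 0.70 mock peaks and the short arm 0.21, a ratio of 3.39 (2.32 to 5.11). In lipid overload these were 2.38 and 0.51, a ratio of 4.67 (3.69 to 5.99). The intervals of the arms did not overlap in either list. At −log10 q of at least 5 the mock ratio was 9.12 (2.36 to 77.9), on few peaks.

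Set among all 41 chromosome arms with at least 50 coding genes, the arms of chromosome 20 stood near opposite ends of the order. The long arm ranked 3 in mock and 2 in lipid overload for peaks per coding gene, and the short arm ranked 38 and 39. In lipid overload only the short arm of chromosome 5, with 6.17 peaks per gene, stood above the long arm of chromosome 20. Its next neighbour below, the long arm of chromosome 9, had 2.23 (2.11 to 2.36), which overlaps the interval of the long arm of chromosome 20 (2.22 to 2.56). Below the short arm stood only the long arms of chromosomes 4 and X, with 0.40 and 0.39 peaks per gene. The short arm of X, with 0.54, did not differ from it beyond the counting intervals. Counting only lipid-overload peaks away from gene ends, the long arm ranked 2 and the short arm 39 per coding gene.

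**Figure D1:**
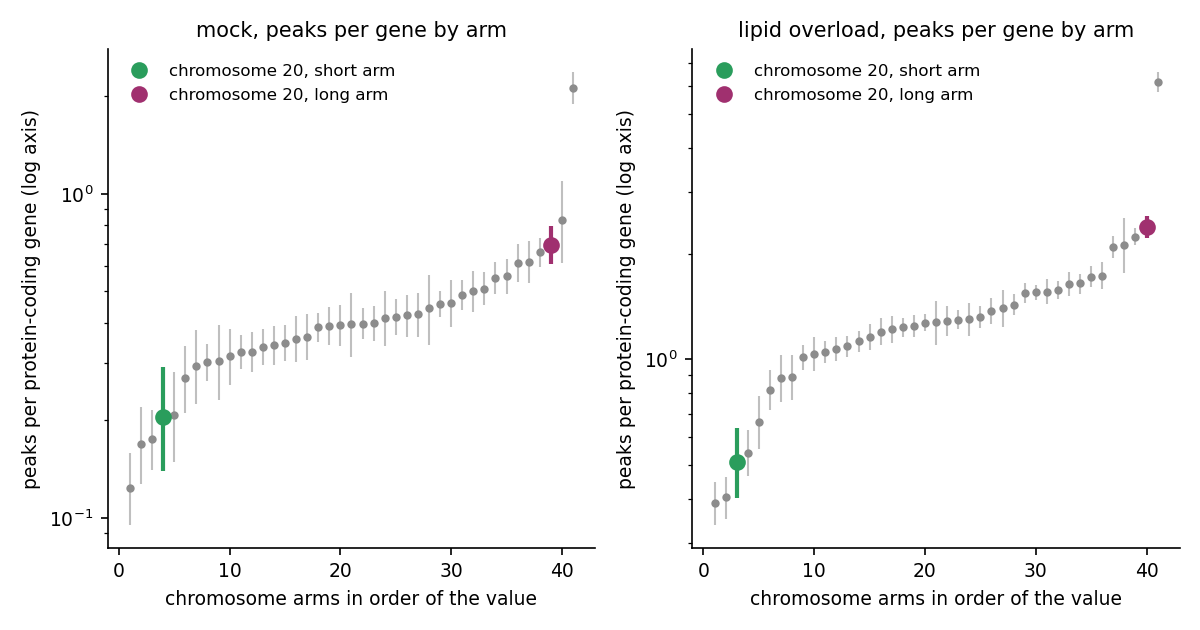
γH2AX peaks per protein-coding gene (log axis) in 41 chromosome arms, in rising order of the value, with mock on the left and lipid overload on the right; points are 1 library each and lines are exact 95% Poisson intervals. The short arm of chromosome 20 (green, 0.21 and 0.51) sits near the low end and its long arm (purple, 0.70 and 2.38) near the high end of both lists.

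Peaks of the long arm also had more fragments and stood on a higher local background, but their fold enrichment was not higher in lipid overload. There the median fold was 4.90 on the long arm, 5.43 on the short arm and 5.14 on the other chromosomes. In mock these were 4.61, 4.40 and 4.49. The median lipid-overload peak had 9 fragments on the long and 7 on the short arm, and the median mock peak 6 and 4. Of the 85 lipid-overload peaks with at least 20 fragments, 82 were on the long arm. The median local background was 0.362 fragments in mock and 0.930 in lipid overload on the long arm, against 0.137 and 0.436 on the short arm and 0.274 and 0.722 on the other chromosomes. Over peaks of fewer than 10 fragments away from gene ends it was 0.315 and 0.616 on the long arm, 0.137 and 0.386 on the short arm, and 0.191 and 0.461 elsewhere. In both sets of peaks the short arm lay below the other chromosomes and the long arm above them. In rank among the 41 arms the median background of the long arm was 6 in mock and 7 in lipid overload, and that of the short arm 40 and 39. The local background counts fragments of the same library around the peak, so copy number and γH2AX itself cannot be told apart in it, and a gain of the chromosome was not tested.

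Mock and lipid-overload peaks shared positions mostly on the long arm. An overlap of at least 1 bp with the other list was found for 102 of the 256 mock peaks (39.8%, 33.8 to 46.1) and for 100 of the 847 lipid-overload peaks (11.8%). On the short arm 3 of 31 mock peaks did so, on the long arm 99 of 225, and on the other chromosomes 44.0%. The shared mock peaks had a median of 8 fragments and those not shared 4. Mock peaks not shared reached 12 fragments at most, whereas lipid-overload peaks not shared reached 50. At −log10 q of at least 5 in both lists the share of mock peaks with an overlap was 82.9%.

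The 1 Mb windows showed the same step between the arms along the chromosome. Of the 24 full windows of the short arm, 10 had no mock peak and 7 no lipid-overload peak, the median window had 2 lipid-overload peaks, and the highest had 17. All 31 full windows of the long arm had a lipid-overload peak, 1 had no mock peak, and 19 had at least 20 lipid-overload peaks, with a median of 23 and a range of 1 to 67. Windows cut by the margins held the remaining 19 mock and 55 lipid-overload peaks. The long arm was not even: between 52 and 56 Mb its 4 windows had 6, 7, 5 and 1 lipid-overload peaks. The longest stretch with no lipid-overload peak, 3.57 Mb from 14.0 to 17.6 Mb, was on the short arm and held 7 coding genes. Among them was MACROD2, a very long gene known for fragility in cancers. MACROD2 was still marked in lipid overload, by a gene-end peak at the edge of the stretch.

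**Figure D2:**
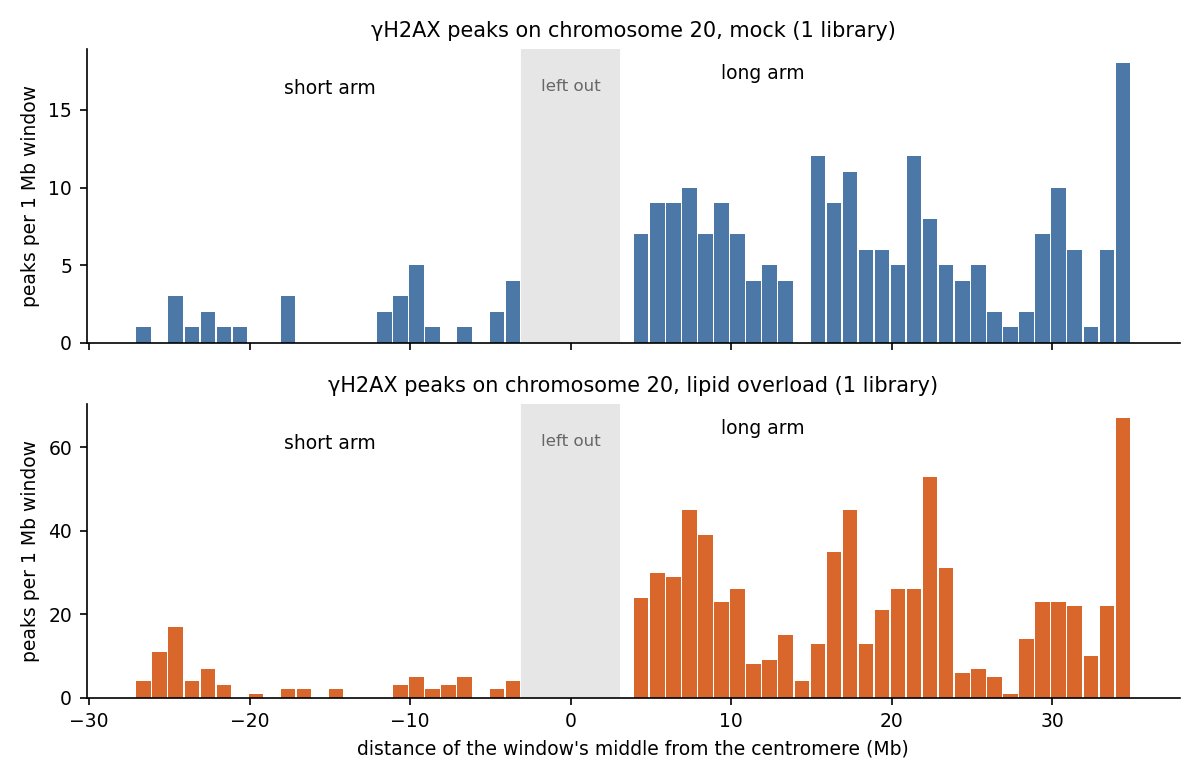
Number of γH2AX peaks in each full 1 Mb window of chromosome 20, by the distance of the window's middle from the centromere (Mb), with mock above and lipid overload below; each bar is 1 window of 1 library and the grey band was left out. Short-arm windows reach at most 5 mock and 17 lipid-overload peaks, and long-arm windows at most 18 and 67.

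Windows with more coding genes tended to have more peaks, and at like numbers of genes the median was higher on the long arm than on the short arm. In lipid overload Pearson's r between peaks and coding genes per window was 0.81 over the 24 short-arm windows and 0.74 over the 31 long-arm windows, and Spearman's rho was 0.75 and 0.81. These windows share 1 library and neighbouring sequence, and are not replicates. Among windows with 8 to 14 coding genes the median was 5 lipid-overload peaks in 3 short-arm windows and 23.5 in 12 long-arm windows. Among windows with at most 2 coding genes it was 0 in 8 short-arm windows and 8 in 9 long-arm windows. In mock these medians were 2 against 7, and 0 against 4. The mock ranges overlapped, with 1 to 5 against 2 to 12 peaks, and 0 to 1 against 0 to 6. In lipid overload the windows with at most 2 genes also overlapped, with 0 to 2 against 1 to 26 peaks.

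**Figure D3:**
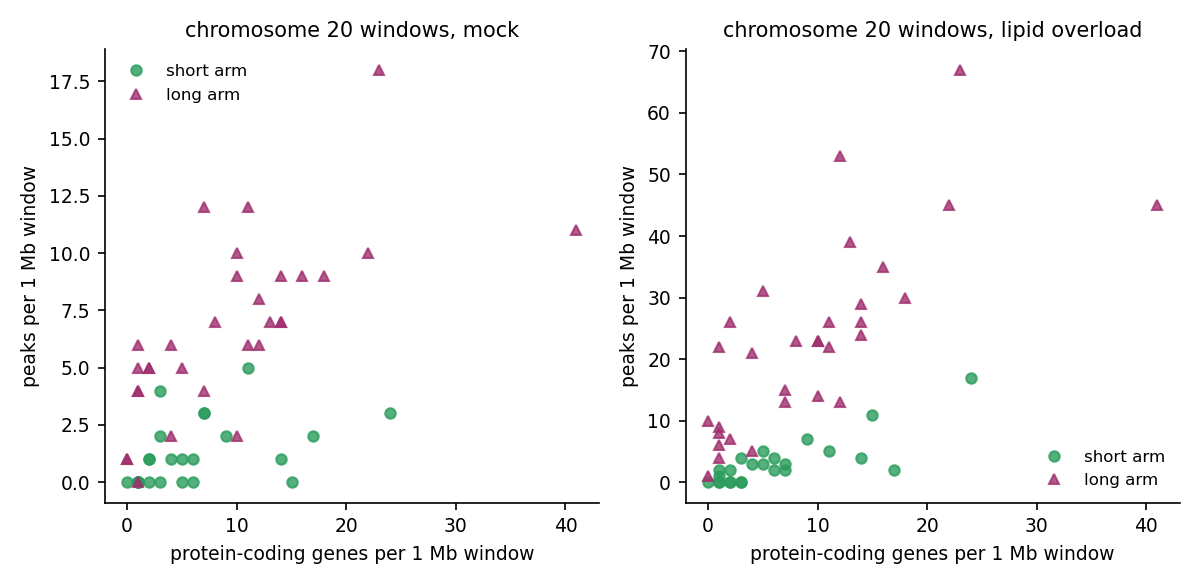
Peaks per 1 Mb window against protein-coding genes per window on chromosome 20, with mock on the left and lipid overload on the right; each point is 1 window of 1 library, green circles for the short arm and purple triangles for the long arm. At like numbers of genes the long-arm windows have the higher medians, with 23.5 against 5 lipid-overload peaks at 8 to 14 genes. In mock the windows at 8 to 14 genes overlap, with 2 to 12 peaks on the long and 1 to 5 on the short arm.

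The densest windows held genes of many kinds. The window from 62 to 63 Mb had 18 mock and 67 lipid-overload peaks, and 16 of its 23 coding genes were marked in lipid overload, among them OSBPL2, TCFL5, ADRM1, the ubiquitin receptor of the proteasome, with 21 fragments, and PSMA7, a proteasome core subunit, with 11. DIDO1 and GID8 were marked in both lists, with 7 mock and 13 lipid-overload fragments on the peaks they share. The window from 50 to 51 Mb had 8 mock and 53 lipid-overload peaks. Only 8 of these lay at gene ends, 19 lay inside coding genes and 15 outside any gene. Its marked genes were PTPN1, a tyrosine phosphatase (23 fragments), PARD6B, a cell polarity protein (17), BCAS4 (15), PEDS1 and its read-through with UBE2V1 (13, on a shared peak), CEBPB, a liver transcription factor (12), ADNP, a chromatin regulator (10), and DPM1 and MOCS3 (9, on a shared peak). The windows from 35 to 36 Mb and from 45 to 46 Mb had 45 lipid-overload peaks each. In the former 19 of 22 coding genes were marked in lipid overload and in the latter 26 of 41. The latter also holds a cluster of secreted protease inhibitors, whose members are described below.

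A smaller share of the peaks of chromosome 20 than of those elsewhere lay at gene ends. Of the lipid-overload peaks of chromosome 20, 27.4% (24.4 to 30.5) touched a gene end and 38.4% lay elsewhere in a coding gene. A further 9.68% lay in another kind of gene only and 24.6% outside genes. On the other chromosomes 32.2% were at gene ends and 21.3% outside genes. Of the 77 short-arm peaks 53.2% were at gene ends (41.5 to 64.7), against 24.8% of the 770 long-arm peaks (21.8 to 28.0). The lipid-overload share at gene ends of the chromosome was 45.9% at −log10 q of at least 5. In mock 21.5% of chromosome 20 peaks touched a gene end (16.6 to 27.0) and 32.4% lay outside genes, against 27.8% and 23.9% elsewhere. The mock shares at gene ends were 19.4% on the short arm (7.45 to 37.5) and 21.8% on the long arm (16.6 to 27.7), with intervals that overlap. Gene-end peaks numbered 4.22 times as many in lipid overload as in mock (3.13 to 5.77), and peaks outside genes 2.51 times (1.93 to 3.27), intervals that overlap.

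Of the 474 coding genes of chromosome 20, 64 were marked in mock, where 13.3% of the 18869 coding genes of all chromosomes were, and 227 in lipid overload, where 43.3% were. That is 13.5% (10.6 to 16.9) and 47.9% (43.3 to 52.5) of the chromosome's genes. Marked in lipid overload only were 178 genes (background 31.3%), in both lists 49 (background 12%) and in mock only 15 (background 1.35%). The arms lay on either side of the background in lipid overload, with 45 of 151 genes marked on the short arm (29.8%, 22.6 to 37.8) and 182 of 323 on the long arm (56.3%, 50.7 to 61.8). In mock 8 short-arm and 56 long-arm genes were marked, 5.30% and 17.3%. At −log10 q of at least 5 the chromosome had 14 marked genes in mock and 145 in lipid overload, and with lists of equal length 122 in lipid overload, 89 of them in it only.

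Peaks stood at the 5′ end of genes far more often than at the 3′ end. Among the 320 genes longer than 2 kb with a known start, 171 (53.4%) had a lipid-overload peak within 1 kb of the start and 24 (7.5%) within 1 kb of the other end. In mock these were 40 and 6. A peak near a 3′ end can also be the start of a neighbouring gene, as at SCAND1 and CNBD2. Around the 334 starts, 89 lipid-overload summits fell in the 250 bp before the start and 45 in the 250 bp after it, against 14 in each of the next 250 bp on either side. In mock 20 and 7 summits fell in the 250 bp before and after the start. The short arm had the same order, with 36 of its 104 genes marked at the start and 4 at the other end in lipid overload.

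**Figure D4:**
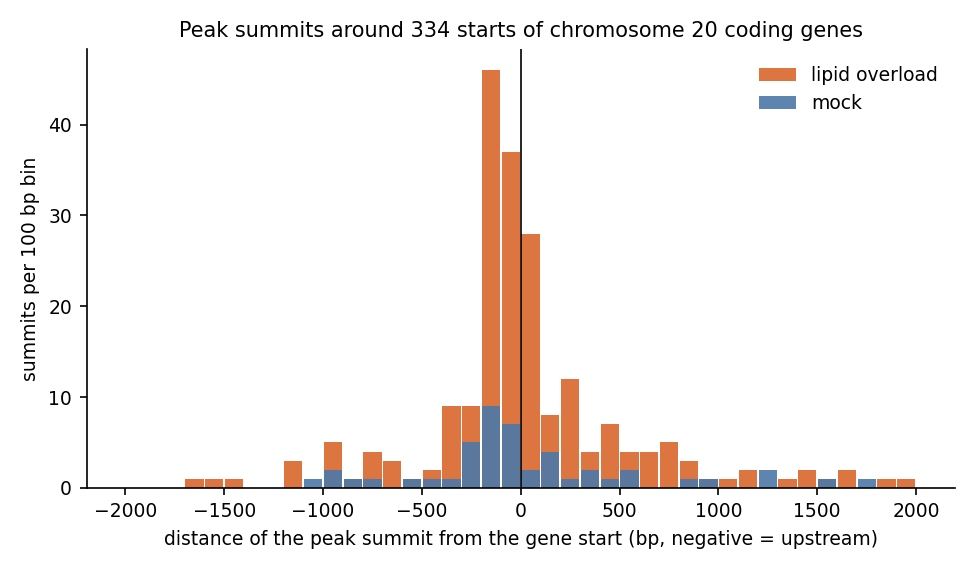
Number of peak summits per 100 bp bin around the starts of 334 protein-coding genes of chromosome 20, with distance in bp and upstream to the left; orange bars are the lipid-overload library and blue bars the mock library, drawn in front. Summits of both lists gather just before the start, with 89 lipid-overload and 20 mock summits in the last 250 bp.

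The marked starts were mostly CpG-rich, and the arms differed within that class. A promoter was called CpG-rich when its observed over expected CpG was at least 0.6 and its G+C at least 50%, a class chosen after the values of the arms were seen. In lipid overload 118 of 150 CpG-rich long-arm promoters had a peak within 1 kb of the start (78.7%, 71.2 to 84.9), against 33 of 69 on the short arm (47.8%, 35.6 to 60.2) and 59.9% on the other chromosomes. Of promoters that were not CpG-rich, 27.3% were marked on the long arm, 7.89% on the short arm and 14.1% elsewhere. CpG-rich promoters made up 66.1% of the long-arm and 64.5% of the short-arm promoters, so their share was close between the arms. In mock 20.0% of CpG-rich long-arm promoters (13.9 to 27.3) and 8.70% of short-arm ones (3.26 to 18) were marked, intervals that overlap.

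**Figure D5:**
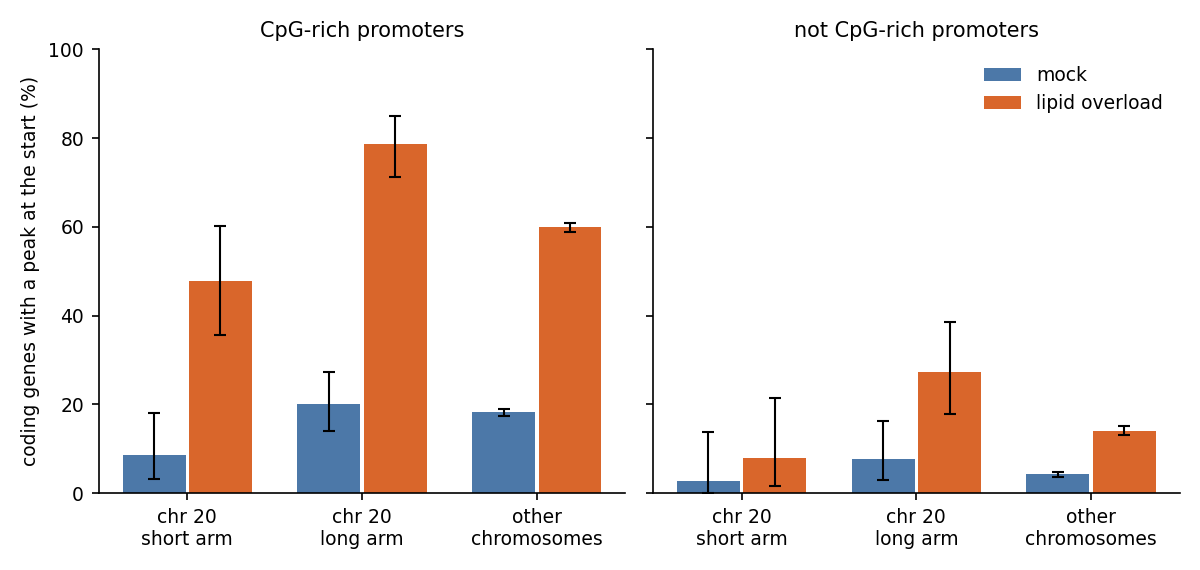
Percent of protein-coding genes with a γH2AX peak within 1 kb of the start, for CpG-rich promoters (left) and others (right), on the short arm, the long arm and the other chromosomes; blue bars are the mock and orange bars the lipid-overload library, with exact 95% binomial intervals. In lipid overload 78.7% of CpG-rich long-arm promoters and 47.8% of short-arm ones had a peak.

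Short motifs were counted in the 300-base promoters on both strands. GGGCGG, the GC box, was in 71.4% of the 175 promoters of chromosome 20 marked in lipid overload (64.1 to 78), in 38.4% of the 159 unmarked ones (30.8 to 46.4) and in 45.0% of all 35116 promoters of the table. CCGGAAG, a site of ETS factors, was in 23.4%, 12.6% and 10.3%, with intervals of marked (17.4 to 30.4) and unmarked (7.86 to 18.8) promoters that overlap. Both contain CG and so follow the CpG content of a promoter. CCAAT was in 34.9%, 29.6% and 34.6%, and TATAAA in 5.71%, 9.43% and 11.5%, with intervals of marked and unmarked promoters that overlap. RALY, TOP1, OSBPL2, TCFL5 and HNF4A, printed above, hold GGGCGG or its complement CCGCCC, and HAO1 does not. A match is a run of letters and does not show that a factor was bound.

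Among the 49 genes marked in both lists, SPAG4, a nuclear envelope protein of the SUN family, had the tallest gene-end peak of the chromosome, with 26 mock and 77 lipid-overload fragments. RALY followed with 15 and 43. RBM39, a splicing factor, had 10 and 42, TOP1 6 and 36, and CBFA2T2, a transcriptional corepressor, 6 and 34. All 5 had more fragments in lipid overload, whose genome background was also higher. Over the 40 different lipid-overload peaks of these genes the ratio of lipid overload to mock ran from 1.17 to 6, with a median of 2.4, close to the ratio of genome backgrounds of 2.39. That background ratio, a ratio of coverage that takes no account of fragment length, lay within the interval of 39 of the 40. The exception was TOP1, with a ratio of 6 (2.50 to 17.4), the highest of the 40, on 6 mock fragments. Its lower limit lay close to the background ratio of 2.39. Among 40 such intervals a miss can arise by counting error alone, so TOP1 was not shown to differ from the other genes.

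Of the genes marked in lipid overload only, OSBPL2 and TCFL5 stood first. VAPB, an endoplasmic reticulum protein that anchors lipid transfer proteins, had 34 fragments, and PHF20, a subunit of a histone acetyltransferase complex, had 30. SCAND1 and CNBD2 shared a peak of 28 fragments, and GDF5, a growth factor of the BMP family, and CEP250, a protein of the centrosome linker, shared a peak of 27. All 8 genes are on the long arm. None had a listed mock peak within 1 kb of either end, which does not show that γH2AX was absent there. Inside PHF20, away from its ends, mock peaks of 9 and 9 fragments were listed.

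The 15 genes marked in mock only had at most 8 fragments. OGFR, the opioid growth factor receptor, had 8, SRSF6, a splicing factor, 7, and MCTS2 7. MCTS2 is a near-identical copy of MCTS1 on another chromosome, so its value is uncertain. The others had 3 to 6 fragments, near the lowest number in the mock list on this chromosome, which was 3.

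On the short arm the tallest peak was at the shared start region of PCNA, the sliding clamp of DNA replication, and CDS2, an enzyme of phosphoinositide synthesis, with 8 mock and 26 lipid-overload fragments. RAD21L1, a meiotic cohesin subunit, had 21 and RRBP1, a ribosome-binding protein of the endoplasmic reticulum, had 20, both in lipid overload only. These 3 were the only short-arm peaks with at least 20 fragments.

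The tallest peaks away from gene ends were on the long arm and present in both lists. LAMA5, a laminin chain, held a peak inside the gene with 26 mock and 89 lipid-overload fragments, the tallest of the chromosome. L3MBTL1, a chromatin-compacting protein, held the tallest mock peak, with 31 and 83. The lncRNA gene LINC02970, 43.7 kb from SLCO4A1, held 14 and 67, and SDC4, a cell-surface proteoglycan, 15 and 56. All 4 had more fragments in lipid overload. By number of peaks away from its ends, CDH4, a cadherin, had most, with 4 in mock and 15 in lipid overload. PREX1, an activator of the GTPase Rac, had 0 and 11, and RIPOR3 0 and 8, level with NFATC2, a calcineurin-regulated transcription factor, with 1 and 8.

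Genes of at least 200 kb differed between the arms in the same way. The 11 on the short arm, 6 Mb in all, held 1 mock and 3 lipid-overload peaks away from their ends. The 8 on the long arm, 3.64 Mb in all, held 9 and 45, or 12.4 lipid-overload peaks per Mb against 0.50.

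Genes of cell division and genome maintenance were often marked in lipid overload, 18 of 24 (75%, 53.3 to 90.2), against 47.9% of the chromosome's coding genes and 43.3% of all coding genes. In mock 5 of 24 were marked, against 13.5% of the chromosome's coding genes. TOP1 had 6 mock and 36 lipid-overload fragments, CEP250 0 and 27, PCNA 8 and 26, and DSN1, a kinetochore protein, 0 and 25. UBE2C, a ubiquitin-conjugating enzyme of mitotic exit, had 9 and 23, on a peak shared with DNTTIP1. MYBL2, a transcription factor of the cell cycle, had 11 and 20, and SAMHD1, which degrades deoxynucleotides, 5 and 16. By arm, 15 of 17 were marked in lipid overload on the long arm and 3 of 7 on the short arm. Of all coding genes of these arms 56.3% and 29.8% were marked.

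A list of 24 long-arm genes named in cancers with a gain of that arm had 14 marked in lipid overload (58.3%, 36.6 to 77.9) and 5 in mock, where 56.3% and 17.3% of the arm's genes were marked. PTPN1 had 0 mock and 23 lipid-overload fragments and ADRM1 0 and 21. YWHAB, a 14-3-3 protein, had 14 and 23 in the same order, and ASXL1, a chromatin regulator, 9 and 21. NCOA6, a nuclear receptor coactivator, had 8 and 15, BCL2L1, an inhibitor of apoptosis, 6 and 12, and ADNP 4 and 10. All 24 had a lipid-overload peak at an end or inside the gene, but the share of the arm's genes with such a peak was not computed. SRC, SALL4, ZNF217 and GNAS had 3, 2, 1 and 2 inside peaks and none at an end. In GNAS a peak inside the gene had 8 mock and 19 lipid-overload fragments. Its mock summit lay 469 bp after the start of the promoter entry.

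Hepatocyte genes showed 7 of 12 marked in lipid overload (58.3%, 27.7 to 84.8) and 3 in mock. Of the chromosome's coding genes 47.9% and 13.5% were marked. GSS, which makes glutathione, had 9 mock and 27 lipid-overload fragments on a peak shared with MYH7B. TGM2, a transglutaminase, had 19 in lipid overload, PROCR, the protein C receptor, 17, and PLTP, the phospholipid transfer protein of plasma, 13. AHCY, an enzyme of the methionine cycle, had 6 and 9. Of the defining hepatocyte markers, LBP had a lipid-overload peak of 11 fragments, HNF4A had 1 mock and 4 lipid-overload peaks inside the gene, and HAO1, FOXA2 and PCK1 had no peak. γH2AX peaks are no measure of expression, so these do not check the cell type.

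Genes of lipid metabolism had 14 of 20 marked in lipid overload (70%, 45.7 to 88.1) and 2 in mock. The shares of the chromosome's coding genes were 47.9% and 13.5%. OSBPL2 stood highest with 50, CDS2 had 8 in mock and 26 in lipid overload, ACSS2, which makes acetyl-CoA from acetate, 0 and 21, and LPIN3, a phosphatidate phosphatase, 0 and 19. ACSS2 also held a peak inside the gene with 15 and 42 fragments. PTGIS, the prostacyclin synthase, was marked in mock only, with 5. SPTLC3, of sphingolipid synthesis, and ACSS1, the mitochondrial counterpart of ACSS2, both on the short arm, had none.

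Genes of RNA and protein synthesis and turnover had 20 of 30 marked in lipid overload (66.7%, 47.2 to 82.7) and 7 in mock. For all coding genes of the chromosome the shares were 47.9% and 13.5%. RALY and RBM39 led, followed by EIF6, a ribosome assembly factor, with 8 mock and 23 lipid-overload fragments on a peak shared with MMP24, and by RPN2, of the oligosaccharyltransferase, with 0 and 21. CTNNBL1 had 5 and 12, and STAU1 and DDX27 shared peaks of 5 and 11. By arm, 16 of 18 were marked in lipid overload on the long arm and 4 of 12 on the short arm. Of all coding genes of these arms 56.3% and 29.8% were marked, so the arms differed without the list as well. Genes of mitochondria and respiration had 12 of 16 marked in lipid overload (75%, 47.6 to 92.7) and 3 in mock, beside the same 47.9% and 13.5%. FAM210B had 23 in lipid overload. PRELID3B had 8 mock and 22 lipid-overload fragments, RAB5IF 9 and 20, and ATP5F1E, a subunit of ATP synthase, 5 and 9. NFS1, which supplies sulphur to iron-sulphur clusters, and ROMO1 shared a lipid-overload peak of 19.

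The clusters of secreted defence and fertility proteins, which are known mainly from epithelia and the reproductive tract, had 9 of 43 marked in lipid overload (20.9%, 10.0 to 36.0) and 0 in mock. PI3, an elastase inhibitor, had 17 fragments, SLPI, a leukocyte protease inhibitor, 12, WFDC3 11 and WFDC10A 9. None of the 11 cystatin genes of the short arm was marked, where 29.8% of that arm's coding genes were marked in lipid overload. Many of these genes are close copies of each other, so fragments could be split among them. Of 18 neuron and endocrine markers 2 were marked in lipid overload, among them NTSR1, a neurotensin receptor, with 16 fragments, and 0 in mock. Of 10 markers of blood and endothelial cells 0 were marked in lipid overload and 1 in mock. The lipid-overload shares of these 3 lists lay below the 43.3% of all coding genes. Those of the lists of dividing cells, lipids, RNA and mitochondria lay above it. For lipids, RNA and mitochondria the intervals include the 47.9% of the chromosome's own coding genes. In mock 13.5% of the chromosome's coding genes were marked. Genes of a list lie partly beside each other, so they are not independent.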

How the data were processed

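Peaks of γH2AX CUT&Tag were analysed for mock-treated and lipid-overloaded HepG2 cells, 1 library each, grouped by sample title. The submitters' processing notes list build hg38, deepTools, MACS2 2.1.2, BWA and FastQC. Not given in the sources used here are their settings and whether IgG served as control. A peak list was deposited for each library. The fold enrichment (a linear ratio), score, −log10 p and −log10 q of a peak are the authors' values as deposited, and were used to describe, filter or rank within 1 list. Total read depth is unknown.

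Fold, taken as fragments plus 1 over background plus 1, and −log10 p, taken as the Poisson tail above the fragment number, were solved for a whole fragment number. This held within 0.0001 in log10 p for 100% of mock and 99.989% of lipid-overload peaks. The step was tested on simulated data. Genes came from the RefSeq table of GRCh38.p14. Of its 59098 genes on chromosomes 1 to 22 and X, 679 (153 protein-coding) out of position order by over 1 Mb were set aside, 0 of them on chromosome 20. Windows took genes by their middle and peaks by their summit. Python 3.11.15, numpy 2.4.6, pandas 2.3.3 and scipy 1.17.1 were used.

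Members, gene lists and tests were chosen with earlier results of these data known. Named genes were the strongest by fragments: 8 marked in lipid overload only, 6 in both, 3 in mock only, the 5 tallest peaks away from gene ends, the 3 genes with most such peaks, marked genes of the densest windows, and up to 4 of each list with any list gene marked in mock. Some genes that this rule names are not reported here. Other names were chosen after their values were seen. Alternatives were a threshold of 5 on −log10 q or on fold, lists of equal length, merged peaks, no margins, other reference chromosomes, gene ends of 3 kb, other overlap rules, shifted windows and other peak sets for the background. No p-value was computed, since each condition had 1 library.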

Additional observations from a re-analysis of the deposited data

How the results depend on the processing

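Of 89 alternative values over 17 results, 49 stayed within counting error or within 1.5 times and 40 moved. The cause was not tested. The excess of the long arm over the short arm per coding gene held in each, from 3.04 to 9.12 in mock and from 3.60 to 5.02 in lipid overload. At −log10 q of at least 5 the ratio of lipid-overload to mock peaks was 6.90 and relative to the other chromosomes 0.857, the share of all lipid-overload peaks 2.92%, the long-arm excess in mock 9.12, the gene-end share in lipid overload 45.9%, marked genes 14 and 145, overlapping mock peaks 82.9%, and windows without a peak 38 in mock and 14 in lipid overload. At a fold of at least 5 these were a ratio of 4.31, a share of 3.06%, a long-arm excess in lipid overload of 3.60, gene-end shares of 27.4% and 37.7%, 31 genes marked in mock, overlaps of 62.1% and 14.2% and 26 windows without a mock peak. With equal list lengths the ratio was 0.871 and relative to the others 0.877, the lipid-overload share 2.89%, its gene-end share 49.8%, genes marked in lipid overload 122 and in it only 89, overlaps 27.0% and 30.0%, and windows without a lipid-overload peak 17. The relative ratio fell below 1 under both settings, with intervals that include 1. Without margins the lipid-overload share was 3.62%, and without chromosomes 17, 19 and 22 the shares were 3.76% and 3.96%. Gene ends of 3 kb gave 29.7% and 35.1%. Overlap of 50% gave 24.6% and 7.44%, and peaks within 1 kb gave 14.6% of lipid-overload peaks. The median background of chromosome 20 over the others was 1.25 in mock and 1.19 in lipid overload, 1.38 and 1.29 under 10 fragments and 1.59 and 1.16 away from gene ends. No paired analysis was possible because each condition had 1 library. Total depth is unknown, and the part of depth in the shorter mock list was not tested.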

Other observations

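Of the 457 lncRNA genes annotated on the analysed arms of chromosome 20, 105 held a lipid-overload peak and 43 a mock peak, whether or not a coding gene lies there too. Of the 39 miRNA genes and the 30 snoRNA genes, 0 held a peak in either list, and of the 284 pseudogenes 1 did in each list. Of the 13 transcribed pseudogenes 3 held a lipid-overload and 2 a mock peak. Peaks in no coding gene and at no gene end fell in lncRNA genes 76 times in lipid overload and 25 times in mock. Shares of these kinds of genes on the other chromosomes were not computed, so no comparison with them is made.

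Tall peaks outside any annotated gene lay near the start of the long arm. A peak 15.9 kb from DEFB115, a defensin gene, had 22 fragments in mock and 45 in lipid overload. A pair of neighbouring peaks lay 9 and 11.8 kb before the start of ID1, a target of BMP signalling. They had 22 and 17 fragments in mock and 47 and 45 in lipid overload. In MIR1-1HG, the host gene of a muscle miRNA, 81.6 kb from GATA5, a peak had 13 and 35 fragments. These peaks were chosen after their values were seen.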
